A study of Homo sapiens with 6 samples.

Results

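IGHM, IGHA1, TRAC, GZMB, GZMH, PRF1 and NKG7 are 7 genes best known from lymphocytes, and they were followed here in Mon-Mac-6, an established human line of monocytic leukaemia cells. They were picked by symbol from the 31853 genes of the deposited table, and the difference between treated and control cells was in view when they were picked. Their differences are therefore given as a description, with no test. The cells received 500 nM WD6305, which the series title calls a PROTAC against METTL3, or DMSO, the vehicle, and RNA was taken after 48 h. A PROTAC is a molecule that brings a target protein to a ubiquitin ligase, and METTL3 writes N6-methyladenosine on RNA. There were 3 poly(A) RNA libraries per group, and no source used here says whether they came from separate cultures, so each spread and p-value covers the difference between these samples, which may be technical. All cells were of 1 line, and no untreated group was analysed.

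B cells build an antibody heavy chain by joining V, D and J segments and splicing the joined exon to a constant gene such as IGHM (IgM) or IGHA1 (IgA1). T cells assemble their receptor in the same way, and TRAC encodes the constant part of its alpha chain. Constant genes can also be transcribed without a joined V exon, as sterile germline transcripts. Cytotoxic T cells and natural killer cells kill through granules: PRF1 encodes perforin, which opens the target cell membrane, GZMB and GZMH encode granzymes, the serine proteases that enter through it, and NKG7 encodes a membrane protein of these granules. Monocyte precursors carry related serine proteases in their own granules.

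The libraries held 64525948 to 71155346 deposited counts each, and 23274 to 23933 genes had a count above 0. Low counts favour multiples of 4, with 1071 to 1176 genes at a count of 4 in a library against 553 to 636 at a count of 3. Limits given for a count of 0 rest on 3 single counts, and if the step of 4 counts were the unit, they would be 4 times higher. DMSO 3 and WD6305 1 stood apart in keratin transcripts: KRT5, KRT6A, KRT14, KRT16 and KRT17 summed to 0.18 and 0.13 FPKM there and to 58.3 to 73.5 FPKM in the other 4 libraries. WD6305 1 also stood apart in collagen transcripts, with COL1A1, COL1A2 and COL3A1 at 4.32 FPKM in sum against 0.13 to 0.27 elsewhere. Values without these 2 libraries are given beside the genes.

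Per unit length the 7 genes ranged from no counts to a level among the higher ones of the table. FPKM, the authors' level scaled by transcript length and library size, was 169 ± 13.8 for NKG7, 10.5 ± 0.435 for IGHM, 2.45 ± 0.588 for IGHA1, 2.21 ± 0.700 for GZMH, 2.13 ± 0.261 for TRAC, 0.180 ± 0.0557 for GZMB and 0 for PRF1 with DMSO (mean ± SD, n = 3). IGHA1, GZMH and TRAC did not differ from each other beyond their spread. The mean of NKG7 was at the 99.5 percentile of all genes in the table. With WD6305 the order became NKG7 at 154 ± 15.6, IGHM at 3.39 ± 0.509, TRAC at 0.953 ± 0.296, GZMH at 0.560 ± 0.148, IGHA1 at 0.533 ± 0.156 and GZMB at 0.0533 ± 0.0473 FPKM. TRAC, GZMH and IGHA1 again overlapped as neighbours in that order.

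Of the 7 genes, 6 had enough counts to be fitted, all but PRF1. GZMB had enough only in its DMSO libraries, where it was higher, so its entry into the fit favoured a fall. In the fit over all genes, 4 of these 6 were among the genes called lower under WD6305 and 0 among those called higher, where 11.2% of all 18138 fitted genes were called lower and 12.2% higher (edgeR quasi-likelihood test, Benjamini-Hochberg adjusted p under 0.05). For 5 of the 7 every WD6305 library lay below every DMSO library in CPM (counts scaled to the library total), as for 20.3% of fitted genes, and for 0 every WD6305 library lay above, as for 20.4%. The genes were picked from this contrast, so these counts describe the choice and are no test of the 7 genes. In bulk RNA, fewer cells carrying a transcript and less of it per cell cannot be told apart.

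**Figure D1:**
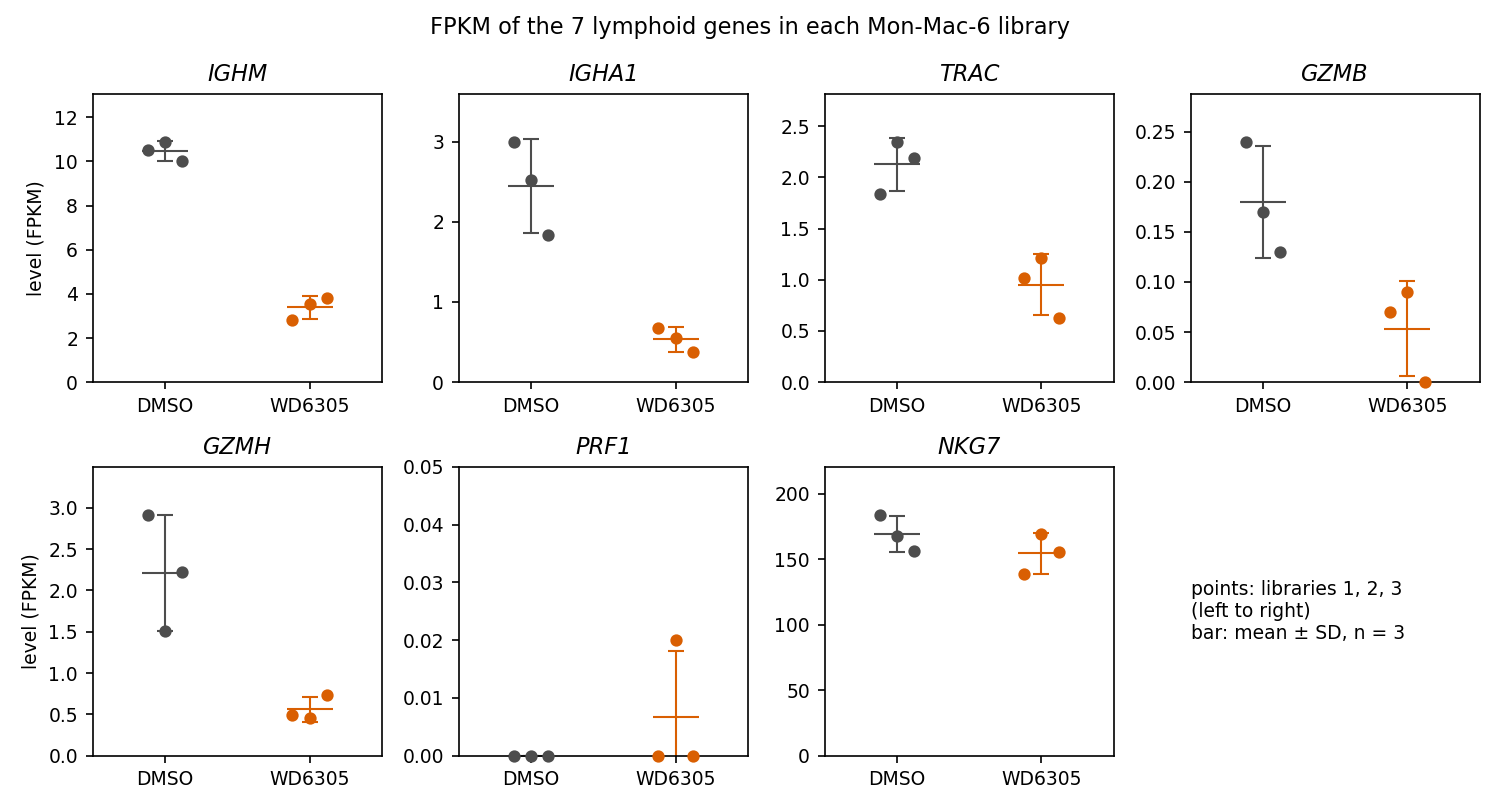
Level (FPKM, linear axes from 0, a separate scale for each gene) of the 7 genes in the 3 DMSO and 3 WD6305 libraries; points are libraries and bars mean ± SD (n = 3). The groups are apart for IGHM, IGHA1, TRAC, GZMB and GZMH, overlap for NKG7, and PRF1 is at 0 in all libraries but WD6305 2.

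IGHM had 1485, 1441 and 1334 counts in DMSO 1, 2 and 3 and 364, 487 and 511 in WD6305 1, 2 and 3. All WD6305 libraries were low and the groups did not overlap. The level was 3.03-fold lower under WD6305, a log2 fold change of -1.60 (SE 0.12), and -1.53 without DMSO 3 and WD6305 1. The gene lies on chromosome 14 from 105851705 to 105856218 on the minus strand (GRCh38).

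IGHA1, from 105703995 to 105708665 on the same strand, had 323, 253 and 186 counts with DMSO and 67, 58 and 38 with WD6305. Its groups did not overlap either, although the DMSO libraries were spread more widely than those of IGHM. IGHA1 was 4.49-fold lower (log2 fold change -2.17, SE 0.29), and its log2 fold change was -2.56 without the 2 libraries that stood apart. In FPKM, IGHM exceeded IGHA1 by 3.50-fold to 5.48-fold in the DMSO libraries and by 4.15-fold to 10.3-fold in the WD6305 libraries, and these ranges overlap.

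Whether reads of IGHA1 can be told from those of its copy IGHA2 bears on its counts, so the stretch where both genes differ most is shown. In GENCODE v29 transcripts (GRCh38) the coding parts of IGHA1 and IGHA2 were 92.2% identical over their alignment. The longest gap, of 39 bases, falls in the hinge, which links the arms of the antibody to its stem. Capitals mark bases that differ from, or are absent in, the other gene, with IGHA1 at chr14:105708058-105708144 and IGHA2 at chr14:105587827-105587874, both on the minus strand and coding:
IGHA1: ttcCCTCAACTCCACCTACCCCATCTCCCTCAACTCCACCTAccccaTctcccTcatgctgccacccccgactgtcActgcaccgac
IGHA2: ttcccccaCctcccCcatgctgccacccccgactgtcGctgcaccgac
Of all windows of 150 bases in the IGHA1 transcript, the length of 1 read, 2.33% also occur in another gene, and of all windows of 50 bases 34.3%, each of them in IGHA2. For IGHM, TRAC, NKG7 and PRF1 0 windows of either length occur elsewhere. IGHA2 itself had 6, 0 and 3 counts with DMSO and 0 in the 3 WD6305 libraries, so nearly all alpha-chain counts were assigned to IGHA1.

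The other heavy chain constant genes of the cluster were low in counts. IGHG3 (IgG3) had 77, 147 and 141 counts with DMSO and 0, 23 and 14 with WD6305. It fell, with a log2 fold change of -3.27 (SE 0.81, edgeR adjusted p = 0.0188). Its WD6305 libraries alone would not have passed the filter on low counts. The call was lost without DMSO 2 or WD6305 3 (edgeR adjusted p = 0.0686 and 0.0680) and with no filter on low counts (0.0698). The log2 fold change was -4.05 without WD6305 2, -2.58 without DMSO 3 and WD6305 1, and -0.57 with limma on log2(FPKM + 1). IGHG1 (IgG1) had 9, 26 and 28 counts with DMSO and 0 in each WD6305 library, and IGHD (IgD) had 16 in DMSO 3 and 0 in the other 5 libraries. IGHG1 and IGHG3 share 249 of the 150-base windows of their transcripts, so their counts are uncertain between them. Summed over the 6 constant genes with a row, heavy chain counts were 1708 to 1900 with DMSO and 431 to 568 with WD6305.

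Just before IGHM lies the switch region, a repeat-rich stretch rich in the pentamer GAGCT at which antibody class switching breaks the DNA. The table lists 4 microRNA hairpins there, from 1.295 kb before the start of IGHM, and their sequences (RefSeq, GRCh38.p14, minus strand) are printed. Each is shorter than a read of 150 bases, and windows shared within the repeat were not searched. The place of their counts in the repeat is therefore uncertain. Capitals mark GAGCU, the pentamer as RNA, searched on the printed strand:
MIR4539: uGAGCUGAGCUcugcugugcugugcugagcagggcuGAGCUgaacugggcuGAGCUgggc
MIR4507: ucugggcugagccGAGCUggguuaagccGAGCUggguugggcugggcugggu
MIR4538: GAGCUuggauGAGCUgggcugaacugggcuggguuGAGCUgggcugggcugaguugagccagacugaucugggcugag
MIR4537: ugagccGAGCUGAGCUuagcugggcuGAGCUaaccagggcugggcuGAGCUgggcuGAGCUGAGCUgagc
They lie at chr14:105857513-105857572, chr14:105858124-105858175, chr14:105858165-105858242 and chr14:105859484-105859553, and MIR4507 and MIR4538 overlap. They hold 4, 2, 3 and 6 copies of the pentamer, where 1.34% of 1562 human hairpins hold 2 or more. The libraries were made from poly(A) RNA, so mature microRNAs were not what they measured. MIR4539 had 24, 13 and 14 counts with DMSO and 2, 5 and 4 with WD6305, a log2 fold change of -2.13 (SE 0.72) that did not pass (edgeR adjusted p = 0.0647) and that passed in 2 of 13 alternatives, both with limma on FPKM (adjusted p = 0.00643 and 0.0107). MIR4537 had 11, 8 and 12 against 2, 5 and 2. For MIR4507 the counts were 6, 2 and 4 against 1, 3 and 1. MIR4538, at 10, 2 and 2 counts against 1, 1 and 0, had the fewest under WD6305. MIR4539, MIR4538 and MIR4537 were lower in every WD6305 library than in every DMSO library, as were 20.3% of all fitted genes, while MIR4507 overlapped. For MIR4538 this rests on 2 counts against 1. MIR4537 and MIR4538 had too few counts to fit, and MIR4539 was fitted only through its DMSO counts.

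Transcripts with a joined V exon would also cover V and J segments. The rows analysed here held 0 heavy chain V genes of the chromosome 14 locus. Only 6 D and 2 J rows of the heavy chain were present, a J pseudogene among them, and each was shorter than a read of 150 bases. They summed to 0 to 2 counts in each library for either kind. With so few and short rows, whether V exons were joined was not tested. Light chain constant genes had no row among those analysed here, and 5 lambda V genes summed to 0 to 21 counts with DMSO and 9 to 12 with WD6305.

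TRAC had 137, 162 and 153 counts with DMSO and 69, 87 and 44 with WD6305. The lowest DMSO library was above the highest WD6305 library. TRAC was 2.19-fold lower (log2 fold change -1.13, SE 0.28), and its log2 fold change was -1.17 without the 2 libraries that stood apart. It lies on the plus strand of chromosome 14 from 22547506 to 22552156. Its J segments with a row summed to 0 to 3 counts per library. Its V segments with a row lay the other way: TRAV22 held all their counts, with 38, 32 and 14 for DMSO and 73, 52 and 41 for WD6305, groups that did not overlap, but its log2 fold change of 1.04 (SE 0.46) did not pass (edgeR adjusted p = 0.143). Beta chain V segments summed to 37 to 55 counts with DMSO and 42 to 59 with WD6305. TRDC, the delta chain constant gene 81.7 kb before it, had 19, 5 and 0 counts with DMSO and 12, 5 and 13 with WD6305, a log2 fold change of 0.39 (SE 1.11) that did not pass (edgeR adjusted p = 0.846).

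The gamma chain of the other T cell receptor was more abundant than the alpha chain and moved the opposite way. TRGC1 rose from 1112, 1147 and 1004 counts to 2093, 2550 and 2056, or 2.12-fold (log2 fold change 1.08, SE 0.10, edgeR adjusted p = 0.000166). TRGC2 rose from 1003, 927 and 955 counts to 1086, 1467 and 1246 (log2 fold change 0.44, SE 0.10, edgeR adjusted p = 0.0113). Both calls were kept under all 15 alternatives. Of the 50-base windows of TRGC2 44.7% also occur in TRGC1, so counts may be shared between them. In FPKM, TRGC1 exceeded TRAC by 2.36-fold to 2.93-fold with DMSO and by 10.6-fold to 16.7-fold with WD6305. TRAC was picked from this contrast, so the distance between these ranges is no test. Gamma V genes with a row, 12 in all, summed to 590 to 691 counts with DMSO and 634 to 650 with WD6305. TRGJP1, a gamma J segment, rose with a log2 fold change of 1.12 (SE 0.19, edgeR adjusted p = 0.00339), from 87, 86 and 93 counts to 169, 213 and 178. TRGJP2, also a gamma J segment, had 53, 57 and 59 counts with DMSO and 53, 69 and 65 with WD6305. Its log2 fold change of 0.19 (SE 0.28) did not pass (edgeR adjusted p = 0.686). The list of T cell receptor and CD3 genes held 10 genes besides TRAC, 5 of them with enough counts to fit. Of these, 2 rose, TRGC1 and TRGC2, and 0 fell, where 12.2% and 11.2% of all fitted genes did. Their median log2 fold change was 0.44, against 0.000333 over all fitted genes. PTCRA, the pre-T cell receptor alpha chain, had a log2 fold change of 1.10 and CD247, the zeta chain, of -0.54, and neither passed (edgeR adjusted p = 0.114 and 0.642).

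**Figure D2:**
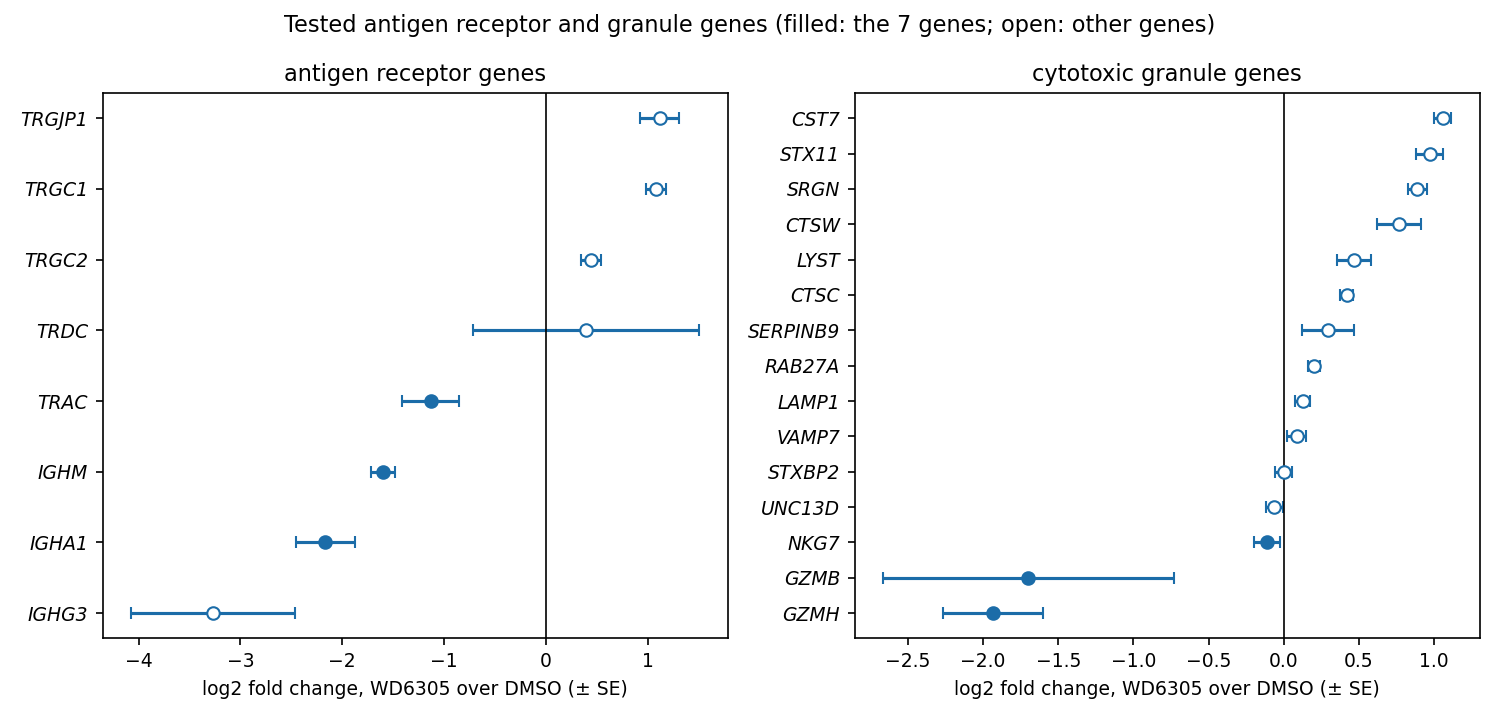
Log2 fold change of WD6305 over DMSO (± SE, edgeR, 3 libraries per group), filled for the genes picked for their difference and open for the others. Left are fitted constant and joining genes of the antigen receptors without TRGJP2, and right are fitted cytotoxic granule genes. Heavy chain genes and TRAC lie below 0 and TRGC1, TRGC2 and TRGJP1 above it; among granule genes GZMH and GZMB lie at -1.94 and -1.70 and CST7 at 1.06.

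GZMH had 210, 102 and 151 counts with DMSO and 33, 32 and 51 with WD6305. DMSO 1 was the highest library, and the lowest DMSO library lay above the highest WD6305 library. GZMH was 3.82-fold lower (log2 fold change -1.94, SE 0.33), with a log2 fold change of -1.86 without the 2 libraries that stood apart. GZMB, its neighbour and the major granzyme of killer cells, was close to the lower limit of these libraries, with 27, 18 and 13 counts against 7, 10 and 0. Its log2 fold change was -1.70 with a SE of 0.97, and -2.12 without those 2 libraries. In WD6305 3, a count of 0 allows up to 0.0449 CPM (3 counts of the scaled total, counting error only).

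PRF1 had 0 counts in all libraries but WD6305 2, which had 4. A count of 0 allows up to 0.0467 CPM in the library with the fewest counts. No fold is given. The gene lies on chromosome 10 from 70597348 to 70602741 on the minus strand, inside the span of PALD1 on the other strand. NKG7 stood at the opposite end, with 12783, 10893 and 10225 counts against 8757, 11408 and 10252. WD6305 1 was the lowest library, and the groups overlapped. Its log2 fold change was -0.11 (SE 0.09), or -0.10 without the 2 libraries that stood apart. NKG7 lies on chromosome 19 from 51371606 to 51372701 on the minus strand. In FPKM it exceeded GZMH by 63.1-fold to 111-fold with DMSO and by 213-fold to 369-fold with WD6305, a description, as GZMH was picked from this contrast.

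GZMH and GZMB sit 21.3 kb apart on chromosome 14, from 24606480 to 24609685 and from 24630954 to 24634209 on the minus strand, in a cluster of serine protease genes that also holds CTSG (cathepsin G) and CMA1 (mast cell chymase). CTSG, 30.2 kb from GZMH and on the same strand, was among the most abundant transcripts, with 3195 FPKM on average with DMSO, and it rose to 3998 (log2 fold change 0.35, SE 0.07, edgeR adjusted p = 0.00722). It kept its direction but missed the threshold with limma on FPKM (adjusted p = 0.0721 to 0.0794). In FPKM, CTSG exceeded GZMH by 1167-fold to 2014-fold with DMSO and by 5665-fold to 8915-fold with WD6305, again only a description. CMA1 had 0 counts with DMSO and 3, 0 and 5 with WD6305. The other granule proteases of the list lie on chromosome 19 and are stored by myeloid precursors: AZU1 (azurocidin), PRTN3 (proteinase 3), ELANE (neutrophil elastase) and CFD (complement factor D) rose by log2 fold changes of 1.23, 1.09, 0.90 and 0.43 (edgeR adjusted p = 2.22e-05 to 0.000371). All 5 fitted proteases other than the granzymes thus rose, against 12.2% of all fitted genes; the list was made with earlier results of these data known.

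**Figure D3:**
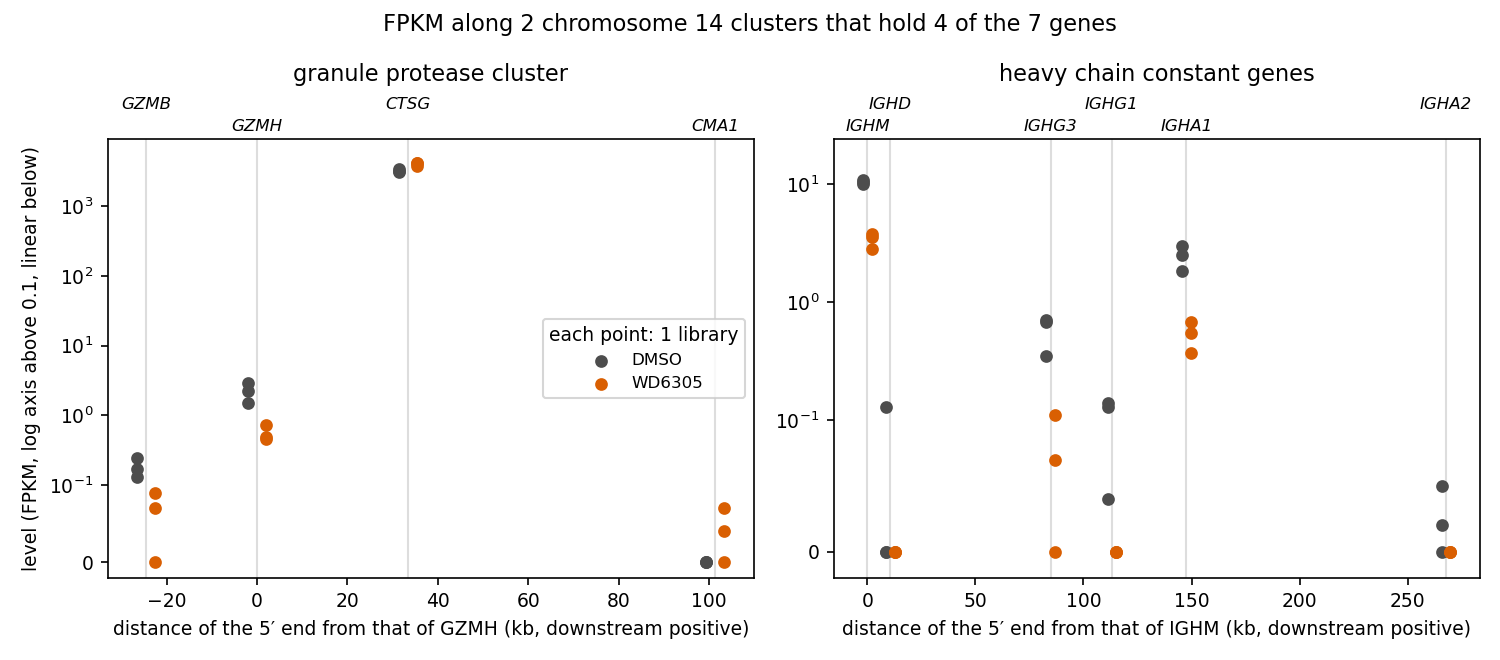
Level (FPKM, log axis above 0.1 and linear below) in each library of the granule protease genes (left) and heavy chain constant genes (right), placed by the distance in kb of each 5′ end from that of GZMH or IGHM. GZMH and GZMB are lower with WD6305 beside CTSG, which is at 3042 FPKM or more in every library, and IGHM, IGHG3 and IGHA1 are lower with WD6305.

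Because GZMH and GZMB are neighbours that both lay lower, while PRF1 was near 0 and NKG7 high, the 250 bases before the RefSeq start of each are shown (GRCh38.p14, minus strand). The table of promoters matched 4 of the 7 genes and none of IGHM, IGHA1 and TRAC. Capitals mark matches, on either strand, to 5 motifs. RUNX factors, which act in lymphoid and myeloid cells, were searched as TGTGGT. The letters TGANTCA stand for AP-1, a factor induced by cell activation. For the cyclic AMP response element (CRE) the core TGACGT was used. ETS factors, a family active throughout blood cells, were searched as CAGGAAG. The octamer, known from antibody gene promoters, was searched as ATTTGCAT. The windows are chr14:24634191-24634440, chr14:24609686-24609935, chr10:70602742-70602991 and chr19:51372655-51372904 in the order printed, and no 2 matches overlap:
GZMB: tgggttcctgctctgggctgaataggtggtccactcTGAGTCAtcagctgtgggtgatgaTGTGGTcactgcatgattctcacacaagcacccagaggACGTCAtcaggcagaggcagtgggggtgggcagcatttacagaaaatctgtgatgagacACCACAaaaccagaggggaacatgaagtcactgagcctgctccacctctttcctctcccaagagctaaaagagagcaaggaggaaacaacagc
GZMH: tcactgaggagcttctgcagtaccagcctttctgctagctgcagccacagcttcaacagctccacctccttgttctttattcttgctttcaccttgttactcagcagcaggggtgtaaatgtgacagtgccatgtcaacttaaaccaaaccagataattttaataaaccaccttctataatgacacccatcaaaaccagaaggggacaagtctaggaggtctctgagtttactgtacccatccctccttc
PRF1: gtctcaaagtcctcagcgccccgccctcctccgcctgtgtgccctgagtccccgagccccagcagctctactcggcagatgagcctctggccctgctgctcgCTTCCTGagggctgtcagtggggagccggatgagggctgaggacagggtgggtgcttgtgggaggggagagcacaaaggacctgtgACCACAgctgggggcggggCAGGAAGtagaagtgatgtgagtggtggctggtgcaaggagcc
NKG7: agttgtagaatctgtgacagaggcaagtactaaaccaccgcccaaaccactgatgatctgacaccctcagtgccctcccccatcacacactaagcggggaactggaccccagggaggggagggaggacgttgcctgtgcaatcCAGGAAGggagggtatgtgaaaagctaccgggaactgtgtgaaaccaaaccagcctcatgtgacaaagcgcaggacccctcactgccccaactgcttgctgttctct
GZMB held 4 matches: AP-1 from base 214 to 208 before the start, RUNX from 190 to 185 and from 93 to 88, and the CRE core from 152 to 147. PRF1 held 3, a RUNX match from base 62 to 57 and ETS matches from 148 to 142 and from 43 to 37. NKG7 held 1, for ETS, and GZMH 0. Of 35116 promoter windows of that length 11.0% held the RUNX letters, 6.57% AP-1, 7.10% the CRE core, 10.5% ETS and 1.63% the octamer. A match of letters is no bound site, and these data hold no measure of binding. The coding parts of GZMB and GZMH were 79.0% identical, and 0 windows of 150 bases but 57 windows of 50 bases occur in both transcripts, so few reads can be shared.

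Other genes of cytotoxic granules were higher or did not pass. Of 12 fitted genes of that list besides GZMB, GZMH and NKG7, 7 rose and 0 fell, where 12.2% and 11.2% of all fitted genes did, with a median log2 fold change of 0.36. SRGN, the proteoglycan that packs granule proteases, rose from 7642 ± 362 to 14146 ± 252 CPM (log2 fold change 0.89), and CST7 (cystatin F), an inhibitor of granule cathepsins, rose 2.08-fold. CTSC, the protease that activates granzymes and the granulocyte proteases, rose 1.34-fold, and STX11, a fusion protein of granule release, 1.96-fold (edgeR adjusted p = 2.54e-05 to 0.000268 for these 4). CTSW, LYST and RAB27A also rose, with log2 fold changes of 0.77, 0.47 and 0.20 (edgeR adjusted p = 0.00586, 0.0174 and 0.00632). The LYST call did not hold when DMSO 1, DMSO 2, WD6305 1 or WD6305 3 was left out, or with no filter (edgeR adjusted p = 0.0531 to 0.0694). The release factors UNC13D and STXBP2 differed by -0.06 and -0.00067 on the log2 scale, and neither passed. GNLY (granulysin) had 10 counts in DMSO 3 and GZMM 16 in WD6305 2, and both had 0 in the other libraries.

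Several defining markers of lymphocytes had few or no counts. KLRD1, a natural killer receptor, had a row and 0 counts in all 6 libraries, NCAM1 (CD56) had 2, 0 and 4 counts with DMSO and 0 with WD6305, and NCR1 had 13 in DMSO 1 and 0 elsewhere. CD79A, which carries the antibody signal into the cell, was at 0.31, 0.33 and 0.21 FPKM with DMSO and 0.58, 0.24 and 0.37 with WD6305, and the groups overlapped. CD3D, CD3E, CD3G, PAX5 and MS4A1 had no row among those analysed here. The line carried its monocyte markers: CD14 was at 10.2 and CD33 at 11.4 FPKM on average with DMSO, and LYZ and S100A9 at 3040 and 3579. These markers moved too. Of 14 fitted monocyte genes 8 rose and 4 fell, where 12.2% and 11.2% of all fitted genes did (median log2 fold change 0.30), and their summed level was 6983 to 7510 FPKM with DMSO and 11590 to 13101 with WD6305. CD68, a lysosomal protein of macrophages, rose 2.25-fold, S100A8, LYZ and S100A9, secreted defence proteins, rose 2.05-fold, 1.82-fold and 1.72-fold (edgeR adjusted p = 2.39e-05 to 0.000181), and CD14, the endotoxin coreceptor, fell by 0.37 on the log2 scale (edgeR adjusted p = 0.0123), a call lost without WD6305 2 or WD6305 3 (0.0512 and 0.0578). The part of these markers in the differences of the 7 genes was not tested.

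Of 25 T cell markers, 15 had a row and 6 could be fitted, of which 3 fell and 0 rose, where 11.2% and 12.2% of all fitted genes did (median log2 fold change -0.94). IL7R, the interleukin-7 receptor alpha chain, had 795, 685 and 667 counts with DMSO and 81, 122 and 184 with WD6305 (log2 fold change -2.42, SE 0.25, edgeR adjusted p = 0.000313). CCR7, a homing receptor, fell from 51, 39 and 75 counts to 4, 0 and 8 (edgeR adjusted p = 0.0122), a call lost without DMSO 3 and WD6305 1 together (adjusted p = 0.0679). Its log2 fold change was -3.68, -4.63 without WD6305 3 and -0.347 with limma on log2(FPKM + 1). The fold rests on WD6305 counts near 0, and these libraries alone would not have passed the filter on low counts. LAT, an adaptor of T cell receptor signalling, fell from 275, 199 and 353 to 150, 125 and 122 (2.00-fold lower, edgeR adjusted p = 0.0142), a call lost without WD6305 2 or WD6305 3 (0.0538 and 0.0602). The summed level of the T cell list was 3.12 to 3.63 FPKM with DMSO and 0.96 to 1.22 with WD6305. The largest part of it was IL7R, at 1.63 FPKM on average with DMSO and 0.297 with WD6305. LAT was at 0.823 and 0.393. The other 3 fitted markers did not pass, so the sum does not stand for the list as a whole. The part of these markers in the difference of TRAC was not tested.

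Among B cell and plasma cell markers 22 of 29 had a row. Of 13 fitted, 3 fell and 1 rose, where 11.2% and 12.2% of all fitted genes did (median log2 fold change -0.11). TCF3, an E protein that drives early B cell genes, fell from 175 ± 13.6 to 129 ± 0.818 CPM (edgeR adjusted p = 0.00100), and XBP1, the factor of plasma cell secretion, from 276 ± 16.6 to 217 ± 5.61 CPM (edgeR adjusted p = 0.00196). SPIB fell with a log2 fold change of -0.74 (edgeR adjusted p = 0.0474), a call that was lost under 9 of 15 alternatives (0.0660 to 0.161), among them each library left out except DMSO 3. POU2F2, which binds the octamer of antibody genes, rose with a log2 fold change of 0.50 (edgeR adjusted p = 0.00226). The summed level of the list was 139 to 152 FPKM with DMSO and 117 to 121 with WD6305. Most of it was XBP1, TCF3 and IKZF1, at 86.7, 27.4 and 23.4 FPKM on average with DMSO. CD79A, CD79B and EBF1 were at 0.283, 0.473 and 0.23 FPKM on average with DMSO. The part of the list in the difference of IGHM and IGHA1 was not tested. Of 7 fitted natural killer and cytotoxic receptor genes 3 rose and 0 fell, where 12.2% and 11.2% of all fitted genes did (median 0.82). CD244, a receptor also found on monocytes, rose 3.00-fold, and the signalling adaptors TYROBP and HCST rose 1.77-fold and 1.44-fold (edgeR adjusted p = 0.000104 to 0.00456). That list summed to 60.6 to 65.2 FPKM with DMSO and 98.6 to 107 with WD6305. Most of it was TYROBP, at 41.6 FPKM on average with DMSO and 72.6 with WD6305, and HCST, at 15.1 and 21.5. The natural killer markers KLRD1, NCAM1 and NCR1 of that list had few or no counts.

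Over the 7 lists other than monocyte markers and keratins, without the genes picked for their difference, 49 of 120 genes could be fitted, of which 18 rose and 7 fell, beside 12.2% and 11.2% of all fitted genes. These lists overlap in some genes, and they were made with earlier results of these data known.

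**Figure D4:**
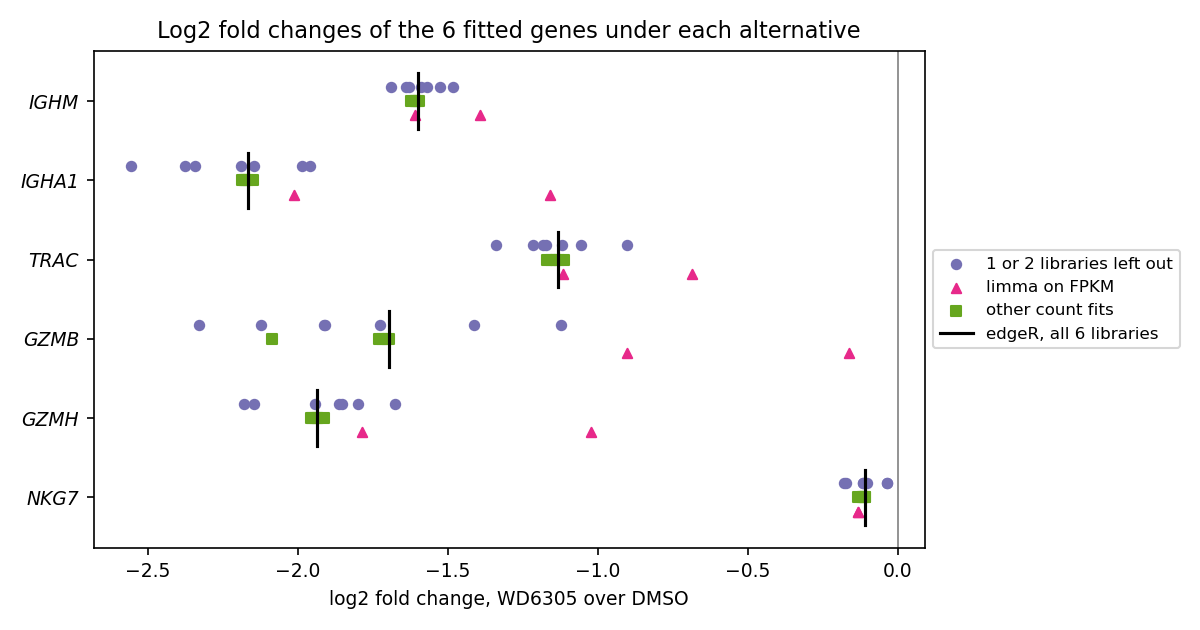
Log2 fold change of WD6305 over DMSO for the 6 fitted genes under each alternative; the black bar is edgeR with all 6 libraries, circles leave out 1 or 2 libraries, triangles are limma on FPKM and squares other fits of the counts. All values lie below 0, from -0.04 to -0.18 for NKG7 and from -0.16 to -2.33 for GZMB. The genes were picked from this contrast, so the shared direction is no test.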

How the data were processed

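Poly(A) RNA was sequenced in paired ends. The second cDNA strand carried dUTP, per the labels' protocols. No source used here says if reads were counted by strand, so overlapping and antisense genes cannot be told apart. The authors used fastp, HISAT2, StringTie and edgeR on GRCh38, per the submitters' processing notes. The deposited table holds estimated counts, which are whole numbers, and FPKM values normalised by the authors, per the file headers, and 0 columns of other samples.

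Counts were fitted over all genes kept by filterByExpr with edgeR 4.0.16 (R 4.3.3), TMM scaling, the quasi-likelihood test and Benjamini-Hochberg adjustment, two-sided, with no replicate block. The filter keeps a gene that reaches about 10 counts in 3 or more libraries. GZMB, IGHG3, CCR7 and MIR4539, high with DMSO, would not have been kept on their WD6305 libraries alone. Their entry into the fit thus favoured a fall. CPM are counts scaled to the TMM-adjusted library total. DESeq2 1.42.0 and limma 3.58.1 on log2(FPKM + 1) and log2(FPKM + 0.1) were alternatives. The fits were tested on simulated data. Shared windows were searched in GENCODE v29 transcripts, on the transcript strand.

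The members, lists and tests were chosen with earlier results of these data known. Named genes were the members, up to 4 called genes per list whose mean FPKM in either group reached 1, defining markers, the 2 nearest named genes on each side of a member, and the 3 genes most alike. CCR7, LAT, SPIB, CTSW, LYST, RAB27A, GNLY, GZMM, UNC13D, STXBP2, PTCRA, CD247, TRDC, TRAV22, TRGJP1, TRGJP2, IKZF1, CD79B, EBF1, MIR4537 and MIR4538 were named outside that rule, after their values were seen. Of the defining markers, 1 is not reported here.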

Additional observations from a re-analysis of the deposited data

How the results depend on the processing

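The 6 fitted genes kept a log2 fold change below 0 under all alternatives run, 14 for GZMB and 15 for each other gene. These genes were picked from this contrast and the alternatives reuse its libraries, so the kept direction is no support for a difference. GZMB was not kept by the filter when counts were divided by 4. With limma on log2(FPKM + 1), whose pseudocount shrinks low genes, the log2 fold changes were -1.39 for IGHM, -1.16 for IGHA1, -0.69 for TRAC, -0.16 for GZMB and -1.02 for GZMH. Without 1 library they ranged from -1.69 to -1.48 for IGHM, -2.38 to -1.96 for IGHA1, -1.34 to -0.90 for TRAC, -2.33 to -1.12 for GZMB, -2.18 to -1.68 for GZMH and -0.18 to -0.04 for NKG7. The count of changed genes was 4249, and without 1 library it was 2756 (WD6305 3) to 4640 (DMSO 3); the cause was not tested. Of the values recomputed for 37 other named genes, 514 stayed on their side of the threshold, 30 lost and 9 gained a call, and 0 changed direction.

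Replicate numbers are shared between the groups, but same-numbered libraries did not deviate together (r of -0.18, 0.08 and -0.15). The largest r between the groups was 0.26, for DMSO 3 and WD6305 1, which also stood apart in keratin transcripts. With 3 libraries per group, these values cannot settle whether libraries were paired. With the replicate number as a block, 3204 genes were called, and the log2 fold changes were -1.61 for IGHM, -2.18 for IGHA1, -1.17 for TRAC, -2.09 for GZMB, -1.91 for GZMH and -0.11 for NKG7.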

Other observations

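Several genes beside the 7 had enough counts to fit. ETFB, an electron carrier subunit 5.22 kb from NKG7, fell with a log2 fold change of -0.60 (edgeR adjusted p = 0.000884), while CLDND2, 2.60 kb from NKG7, had -0.90 and did not pass (0.245), although it passed without WD6305 3 (0.0349). DAD1, a subunit of the glycosylation complex 12.8 kb from TRAC, had -0.19 and did not pass (edgeR adjusted p = 0.0734), but passed in 6 of 15 alternatives. SGPL1, 213 kb from PRF1, fell with -0.34 (edgeR adjusted p = 0.0197), a call lost under 6 of 15 alternatives (adjusted p = 0.0597 to 0.102), among them without DMSO 2, WD6305 1 or WD6305 3. PALD1, whose span holds PRF1, had 12, 12 and 24 counts with DMSO and 5, 6 and 24 with WD6305.

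The 3 genes whose log2 CPM (prior count 2) followed that of a gene most closely over the 6 libraries were AVPR2, YWHAG and ARFIP2 for IGHM (Pearson's r of 0.998 to 0.999), SPNS1, UBE2T and ING5 for IGHA1 (0.997 to 0.998) and CYTIP, SEC23A and ADCY3 for TRAC (0.990). They were MAD2L1, TOB2 and MRPL2 for GZMH (0.994 to 0.997), POMGNT2, EMC4 and SNORA5C for GZMB (0.981 to 0.988) and BNIP1, SZRD1 and DNAJC5 for NKG7 (0.990 to 0.992). Such likeness is a description over 6 libraries of 2 groups that share their depth and scaling. The difference between the groups, on which the 7 genes were picked, was not removed. A high r may therefore restate that difference and does not show shared variation within a group. Of 10723 genes, 705 had an r over 0.95 with IGHM, 501 with IGHA1, 119 with TRAC, 254 with GZMH and 27 with NKG7. With GZMB it was 28 of 10724. None of the 7 genes was among the 3 nearest of another.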
